A study of Mus musculus with 28 samples.

Results

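ERV1 elements are endogenous retroviruses related to the gammaretroviruses, and the mouse genome holds many kinds of them. The repeat track used for the counts had 47936 ERV1 integrants, where an integrant is 1 copy at 1 place in the genome, with long terminal repeats (LTRs) and internal parts joined. An integrant was kept when at least 16 reads fell on it summed over the 16 RNA-seq libraries, which left 2147. No read was counted on 38012 integrants, and 7777 had fewer than 16. The 2147 were divided by name into 121 VL30 integrants (names holding MMVL30, of 408 in the track), 21 MuLV integrants (names holding MuLV, of 300) and 2005 others (of 47228). They stood among 123880 transposable elements (TEs) that passed the same filter. Because reads were summed over all libraries, an integrant that was silent in a given condition entered only through its reads in another, so the 2147 are the integrants with reads and not all copies.

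The libraries came from mouse embryonic stem (ES) cells of the J1 line, strain 129S4/SvJae, grown in 2i and LIF and collected on day 5 after transduction. The comparison covered 3 genotypes: wild type (WT), DNMT TKO cells without working Dnmt1, Dnmt3a and Dnmt3b, and TET TKO cells without Tet1, Tet2 and Tet3. Each received a puromycin-selected lentiviral vector with a hairpin against Kap1 (shKap1) or an empty hairpin cassette (shEmpty), with 3 libraries per hairpin for WT and DNMT TKO and 2 for TET TKO. The TKO genotypes are each 1 line, so genotype and line cannot be told apart. The reference genome mm9 is of another strain, C57BL/6J, and no genome of the cells themselves was used. Only uniquely placed reads were counted, so young copies that are nearly identical lose reads.

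KAP1, encoded by Trim28, is a co-repressor that is carried to DNA by zinc finger proteins with a KRAB domain and that brings in SETDB1, the enzyme that trimethylates histone H3 at lysine 9 (H3K9me3). Gammaretroviruses copy their RNA into DNA from a primer, the 3′ end of a host tRNA, which pairs with a primer binding site just inside the 5′ LTR. ZFP809 is the zinc finger protein known to recognise the proline version of this site and to silence MuLV through KAP1 in ES cells. VL30 elements are virus-like retrotransposons without working viral genes, and MuLV copies are relics of murine leukemia viruses.

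Trim28 (ENSMUSG00000005566) was measured at 1991, 1639 and 1627 CPM (the read count scaled to the gene reads of the library) in the 3 WT shEmpty libraries and at 190.0, 156 and 149 in WT shKap1. In DNMT TKO it went from 2085, 1819 and 1701 to 327, 448 and 506, and in TET TKO from 1771 and 1898 to 163 and 168. Its log2 change was -3.41 in WT, -2.13 in DNMT TKO and -3.47 in TET TKO, and the knockdown was weaker in DNMT TKO than in WT by 1.28 on the log2 scale (adjusted p = 8.0e-04). This shallower knockdown stood beside every comparison of the knockdown effect between DNMT TKO and WT, and its part in them was not tested. Of the transcripts of the deleted genes, Dnmt1 stood at 156 CPM in DNMT TKO shEmpty against 490 in WT, Dnmt3a at 7.65 against 63.0, and Dnmt3b at 25.2 against 156. Tet1 was at 233 against 654 and Tet2 at 91.1 against 408 in TET TKO, whereas Tet3 was at 13.8 and 13.9, which does not tell the lines apart. Of 8 ES cell markers 7 were tested, and their summed level was 3414 to 3764 CPM in all shEmpty libraries and 2167 to 2750 in shKap1. Singly, 2 of the 7 were called lower on knockdown in WT, 1 in DNMT TKO and 0 in TET TKO. In shEmpty cells 2 were called higher in DNMT TKO than in WT. The 11 markers of other cell types summed to 48.2 to 67.5 CPM without and 71.2 to 75.8 with knockdown in WT, 44.6 to 46.1 and 31.1 to 43.8 in DNMT TKO, and 79.7 to 84.9 and 70.3 to 70.4 in TET TKO. Such sums follow the most abundant genes. On knockdown 2 of the 11 were called higher and 3 lower in WT, 2 and 2 in DNMT TKO, and 0 and 2 in TET TKO. Of all 20321 genes 17.4, 12.5 and 12.5% were called there in either direction. Singly, in shEmpty cells 4 of the 11 were called higher and 1 lower in DNMT TKO than in WT (median log2 difference 0.79). In TET TKO 3 were higher and 2 lower (0.48). The share of all genes called between lines is not given here, so the marker counts between lines have no such value beside them. The part of all these markers in the results was not tested. Gene reads per library ran from 18108431 to 29373696, TE reads from 898152 to 1803819 and ERV1 reads from 37585 to 88859, which was 3.32 to 5.36% of the TE reads.

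The integrants are later set out by the tRNA that their primer site matches, so the site is shown here for 12 VL30 and other ERV1 integrants with a site of the 3 most frequent kinds. The site was taken as the 18 bases complementary to the 3′ end of a tRNA gene in the repeat track plus CCA, and was searched on the sense strand with at most 2 mismatches. The patterns, the most frequent end among tRNA genes of each kind, were TGGTGCATTGGCCGGGAA for glycine (Gly), TGGGGGCTCGTCCGGGAT for proline (Pro) and TGGAGGTCCCACCGAGAT for glutamine (Gln). Each line below gives the mm9 position of the bases and then the bases themselves, 5′ to 3′ in the sense of the integrant, with the primer site in capitals. The first 7 are VL30 and the last 5 are other ERV1.
VL30 (RLTR6_Mm) with a Gly site, + strand, chr4:146311478-146311527: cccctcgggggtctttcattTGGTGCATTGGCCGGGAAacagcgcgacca
VL30 without LTRs with a Gly site, - strand, chr12:24769865-24769896: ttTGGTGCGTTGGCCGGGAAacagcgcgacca
VL30 (RLTR6C_Mm and RLTR6_Mm) with a Gly site, - strand, chr11:86629367-86629416: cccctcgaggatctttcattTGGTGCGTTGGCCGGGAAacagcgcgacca
VL30 (RLTR6_Mm) with a Gly site, + strand, chr12:8594967-8595016: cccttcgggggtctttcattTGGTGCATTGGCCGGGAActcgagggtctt
VL30 (RLTR1D) with a Pro site, + strand, chr7:11724391-11724440: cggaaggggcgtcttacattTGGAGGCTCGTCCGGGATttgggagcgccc
VL30 (RLTR6C_Mm) with a Pro site, - strand, chr12:89143952-89144001: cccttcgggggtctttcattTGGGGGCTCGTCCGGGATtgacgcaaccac
VL30 (RLTR6C_Mm) with a Pro site, - strand, chr8:58046798-58046847: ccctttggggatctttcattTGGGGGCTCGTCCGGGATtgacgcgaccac
MMERGLN (RLTR1B) with a Gln site, + strand, chr8:124357157-124357206: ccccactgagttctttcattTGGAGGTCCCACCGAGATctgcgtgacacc
RLTR1B with a Gln site, - strand, chr9:57328605-57328654: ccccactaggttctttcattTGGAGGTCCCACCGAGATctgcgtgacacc
MMERGLN (RLTR1A2_MM) with a Pro site, - strand, chr4:11110989-11111038: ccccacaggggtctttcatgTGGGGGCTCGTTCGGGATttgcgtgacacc
MMERGLN (RLTR1D2_MM) with a Pro site, - strand, chr12:20240157-20240206: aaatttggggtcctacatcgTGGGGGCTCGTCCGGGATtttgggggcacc
RLTR6 (RLTR6B_Mm) with a Gly site, + strand, chr7:12064985-12065034: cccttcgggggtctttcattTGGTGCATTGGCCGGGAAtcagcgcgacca

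Counted from 1 at the 5′ end of the site, 2 of the VL30 sites (on chromosome 12 at 24769865 and on chromosome 11) carried A7G against the Gly pattern. The chromosome 7 VL30 site carried G4A and the chromosome 4 MMERGLN site C12T against the Pro pattern, and the other 8 matched in full. At the chromosome 12 copy that ends at 8595019 the site lay at the 3′ end of the integrant, from base 3882 of 3914. Among VL30 integrants 41 had a Gly site, 14 a Pro site, 4 a Gln site and 62 none. Among MuLV integrants 4 had a Pro site and 2 a Gln site. Among the others 148 had a Gln, 100 a Gly, 94 a Pro and 1 a Thr site.

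To ask how each ERV1 group responded to loss of KAP1, reads were first summed over all integrants of a group and divided by the scaled number of gene reads. VL30 stood at 51.5, 56.7 and 60.9 CPM in WT shEmpty and at 115, 123 and 116 in WT shKap1. In DNMT TKO it stood at 19.5, 23.7 and 23.4 without and at 94.1, 120.5 and 87.0 with knockdown, and in TET TKO at 37.5 and 38.7 and then at 103.6 and 104.5. The shEmpty and shKap1 libraries did not overlap in any genotype, and the 3 genotypes ended close together after starting apart. VL30 RNA rose by 1.07 ± 0.10 on the log2 scale in WT (SE approximated from the F statistic of the test, adjusted p = 5.0e-08, or 0.99 and so under 2-fold with scaling to TE reads), by 2.18 ± 0.11 in DNMT TKO (3.7e-12) and by 1.45 ± 0.13 in TET TKO (1.3e-08). The rise was larger in DNMT TKO than in WT by 1.11 ± 0.15 (adjusted p = 2.7e-05, or 0.82 and so under 2-fold without the most-read copy), and in TET TKO the excess of 0.38 did not pass (0.14). In these bulk libraries fewer cells of a kind and less RNA per cell cannot be told apart.

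MuLV RNA was at 63.1, 51.0 and 52.6 CPM in WT shEmpty and at 165, 183 and 191 in WT shKap1. In DNMT TKO it was only at 3.25, 3.97 and 3.70 and rose to 9.41, 6.96 and 6.27, so that even the highest knockdown library lay below every WT library. In TET TKO it went from 108 and 114 to 294 and 275, the highest values of any group. The log2 rise was 1.69 ± 0.12 in WT, 1.04 ± 0.14 in DNMT TKO and 1.36 ± 0.14 in TET TKO, with adjusted p of 2.6e-09, 6.2e-06 and 3.4e-07. The rise in DNMT TKO differed from that in WT by -0.66 ± 0.18 on the log2 scale (adjusted p = 0.021), which is less than 2-fold, and that in TET TKO by -0.33 (0.26). Without the most-read copy the difference in DNMT TKO was -3.60 (adjusted p = 2.0e-04), and without the top 3 it was -2.43. The rise of 1.04 in DNMT TKO fell under 2-fold with scaling to TE reads (0.84) and without replicate 1 of either hairpin (0.850 at the lowest).

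The other ERV1 integrants held most of the reads and as a sum changed little. They stood at 2407, 2283 and 2567 CPM in WT shEmpty and 2352, 2671 and 2566 in WT shKap1, at 1886, 1803 and 1822 against 2566, 2306 and 2129 in DNMT TKO, and at 2417 and 2737 against 3717 and 3612 in TET TKO. The log2 changes were 0.06 (adjusted p = 0.46), 0.35 (6.5e-04) and 0.51 (1.3e-04), none of them 2-fold, and the change was larger in TET TKO than in WT by 0.44 ± 0.11 (0.014). These sums rest on few copies. A single integrant on chromosome 5 held 80.8% of all MuLV reads, 94.7 to 97.2% in WT shEmpty and 0 to 17.2% in DNMT TKO shEmpty. The top 3 of the others held 30.5%, with 43.9 to 49.5% in WT shEmpty and 5.31 to 8.19% in DNMT TKO shEmpty, and the top 3 of VL30 held 29.3%, with 43.2 to 43.8% and 7.01 to 7.46% in the same groups.

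**Figure D1:**
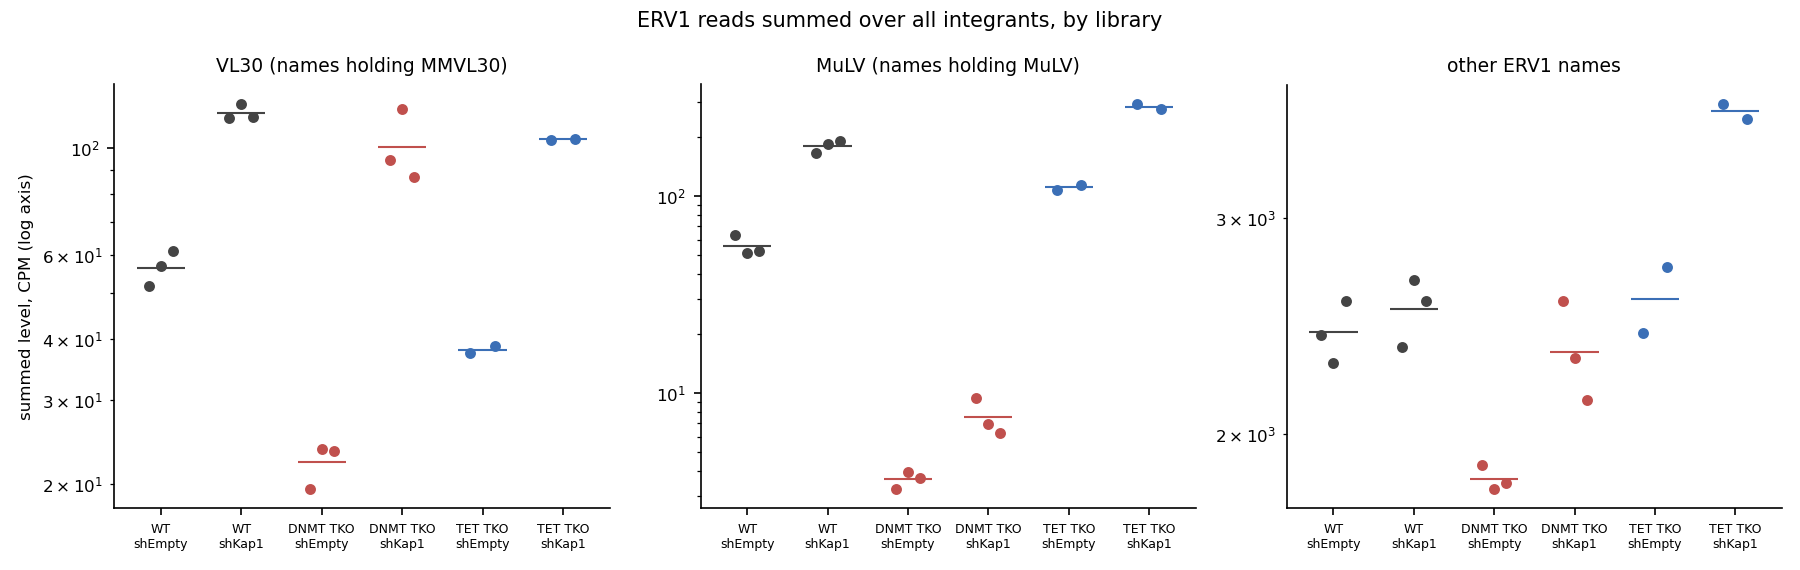
Level of ERV1 RNA by library, summed over all integrants of a group (y axis, CPM on a log scale, a scale of its own in each panel), for shEmpty and shKap1 cells of the 3 lines. Points are libraries and lines are means. VL30 reached 87.0 to 123 CPM in every knockdown library, while MuLV stayed at 3.25 to 9.41 CPM in all DNMT TKO libraries and was at 51.0 or more elsewhere.

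Counting integrants gives each copy the same weight. A call needed an adjusted p below 0.05 over all 123880 TEs and a change of at least 2-fold. In WT, 577 of 2147 ERV1 integrants rose (26.9%) and 70 fell, where 12.1% of all TEs tested rose and 2.05% fell. In DNMT TKO 519 rose (24.2%) and 51 fell, against 15% and 0.944% of all TEs, and in TET TKO 527 rose (24.5%) and 33 fell, against 14.7% and 0.971%. By DESeq2 374, 318 and 314 ERV1 integrants rose in WT, DNMT TKO and TET TKO, and 25 and 16 fell in the 2 mutants. With a filter of 50 reads 382, 336 and 336 rose. The median log2 change of ERV1 integrants was 0.83, 0.79 and 0.78 against 0.23, 0.27 and 0.33 over all TEs. With groups at 0 reads set to their bound the ERV1 medians were 0.87, 0.83 and 0.84.

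VL30 integrants rose in 50 cases in WT (41.3%, or 31 cases by DESeq2 and 33 without the read filter), 72 in DNMT TKO (59.5%) and 39 in TET TKO (32.2%), and no VL30 integrant was called lower by edgeR, DESeq2 or limma-voom in any genotype, where 68, 87 and 57 had an unadjusted p below 0.05 in either direction. Their median log2 changes were 1.498, 2.14 and 1.80, or 1.43, 2.08 and 1.85 with groups at 0 reads set to their bound. MuLV integrants rose in 12 cases in WT (57.1%), 4 in DNMT TKO (19.0%) and 13 in TET TKO (61.9%), with medians of 1.92, 0.98 and 2.88. No MuLV integrant was called lower by any of the 3 tools, and 19, 6 and 14 had an unadjusted p below 0.05 in either direction. Of the others 515 rose and 70 fell in WT (25.7% and 3.49%), 443 and 51 in DNMT TKO, and 475 and 33 in TET TKO. Their medians were 0.77, 0.67 and 0.69.

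**Figure D2:**
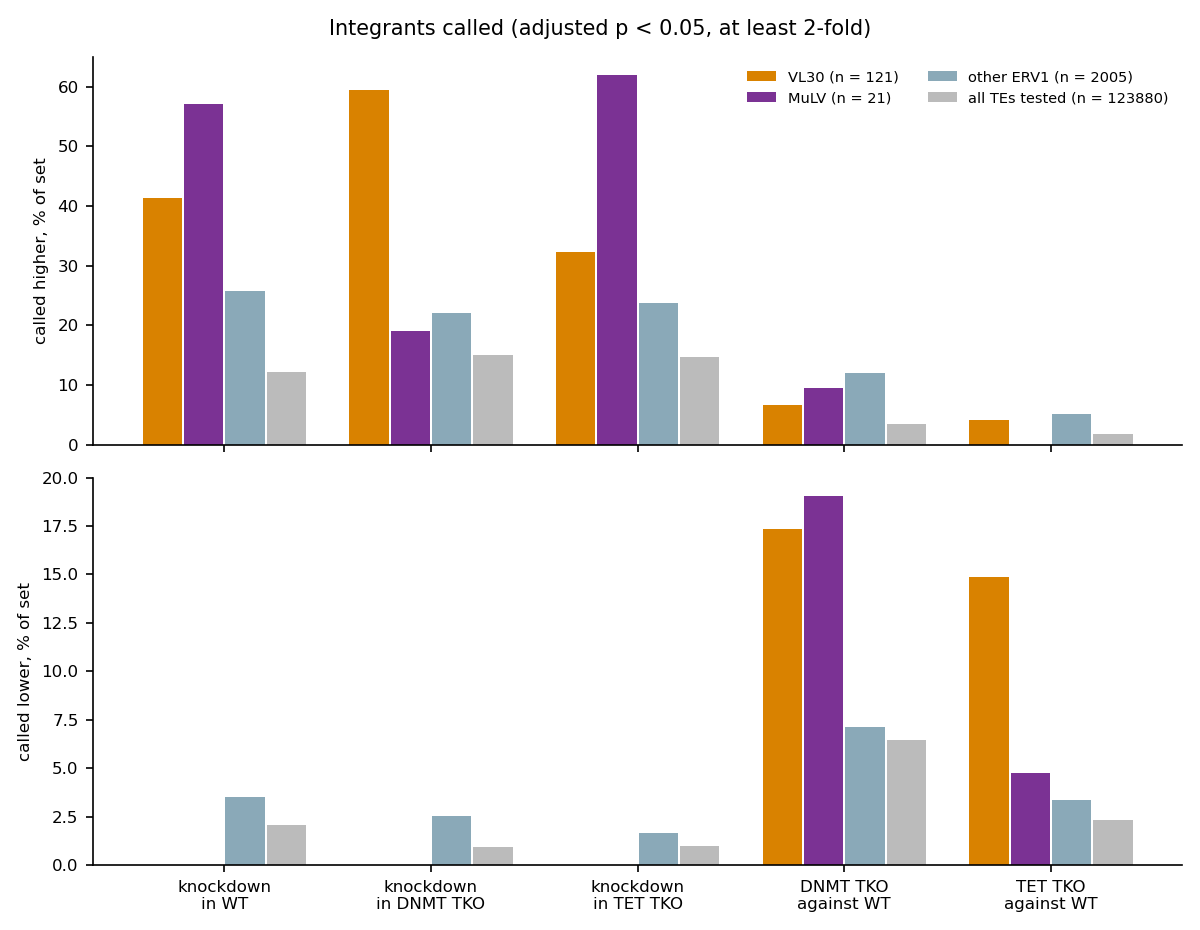
Share of integrants called higher (upper panel) or lower (lower panel) in the 3 knockdown comparisons and the 2 comparisons of shEmpty cells between lines (y axes, percent of the set). Bars are VL30 (n = 121), MuLV (n = 21), other ERV1 (n = 2005) and all TEs tested (n = 123880). Of the 3 knockdowns, the VL30 share called higher was highest in DNMT TKO (59.5%) and the MuLV share was lowest there (19.0%).

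The knockdowns in the 3 lines share no control libraries, so their lists can be set side by side. Of ERV1 integrants 232 rose in all 3, which is 40.2% of the WT list, 44.7% of the DNMT TKO list and 44.0% of the TET TKO list, and 1258 rose in none. Over all TEs tested 7967 rose in all 3, which is 53.0, 42.8 and 43.8% of the lists. For VL30, 21 rose in all 3 (42.0, 29.2 and 53.8% of the lists). A call in 1 line alone was made for 6 VL30 integrants in WT, 23 in DNMT TKO and 5 in TET TKO, of lists of 50, 72 and 39. Over all TEs tested it was made for 2520, 6214 and 4449, of lists of 15029, 18631 and 18204. For MuLV 2 rose in all 3, and 8 of the 12 that rose in WT also rose in TET TKO but 3 in DNMT TKO. Of the 15029 among all TEs that rose in WT, 10907 also rose in TET TKO and 9569 in DNMT TKO. These counts set calls side by side, and the difference between lines was tested only by the interaction terms below.

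**Figure D3:**
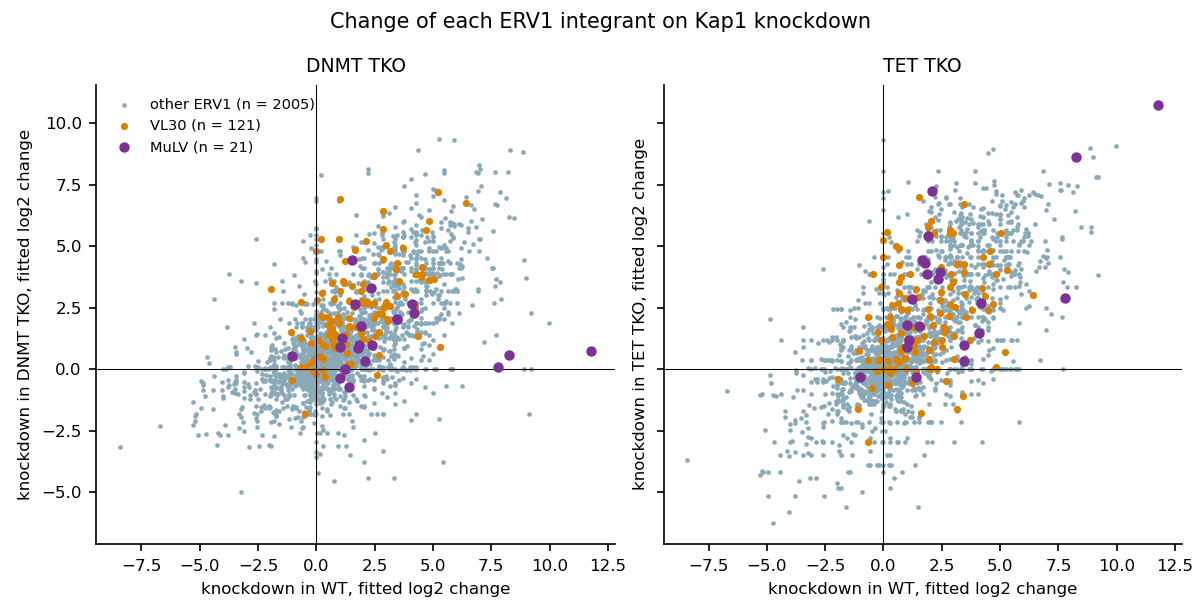
Fitted log2 change on Kap1 knockdown of each of the 2147 ERV1 integrants in WT (x axis) against DNMT TKO (left, y axis) and TET TKO (right, y axis). Each point is an integrant, and values of integrants with a group at 0 reads depend on the prior count of the fit. Most VL30 points lie right of and above 0 in both panels (105 of 121 were positive in WT, 113 in DNMT TKO and 104 in TET TKO), and 3 MuLV points lie far to the right at no or little change in DNMT TKO.

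VL30 copies differed among themselves. The most-read VL30 integrant, chr4:146310938-146315667 (LTRs of RLTR6_Mm at both ends, Gly site, in an intron of Gm17452 on the other strand), was at 14.9, 15.3 and 17.1 CPM in WT shEmpty and at 16.7, 17.2 and 13.6 in WT shKap1. In DNMT TKO it was at 0.355, 0.414 and 0.501 CPM and rose to 2.69, 3.62 and 2.93, and in TET TKO it was at 13.3 and 14.0 and then at 14.4 and 12.9. Both DNMT TKO groups lay below every WT and TET TKO library, and a rise was called in DNMT TKO only, by 2.83 ± 0.23 (adjusted p = 8.6e-33), against 0.01 in WT and 0.00 in TET TKO. The difference of the effect between DNMT TKO and WT was 2.83 ± 0.29 (1.5e-19). A complete copy of another make, chr11:86625244-86629897 (LTRs of RLTR6C_Mm and RLTR6_Mm, Gly site, intergenic), was also lower in DNMT TKO shEmpty than in WT shEmpty. Its CPM was 4.39, 4.62 and 5.02 in WT shEmpty, 0.406, 0.725 and 0.501 in DNMT TKO shEmpty and 2.16, 1.60 and 1.30 in DNMT TKO shKap1, a rise of 1.58 ± 0.27 (1.9e-07), while WT (-0.27) and TET TKO (-0.08) did not pass.

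Other VL30 copies rose in every line. At chr12:24765983-24769896, an internal part without LTRs in an intron of 9030624G23Rik on the same strand and overlapping a KAP1 region, reads numbered 68, 151 and 123 in WT shEmpty and 360, 382 and 287 in WT shKap1. They numbered 5, 12 and 6 against 12, 23 and 25 in DNMT TKO and 87 and 84 against 350 and 352 in TET TKO. The rises were 1.90 ± 0.19, 1.48 ± 0.29 and 2.46 ± 0.23 on the log2 scale, from a level in DNMT TKO that differed from WT by -3.86. At chr12:8591106-8595019 (in an intron of Slc7a15 on the other strand, overlapping H3K9me3) the reads were 2, 7 and 4 in WT shEmpty and 101, 84 and 68 in WT shKap1, 3, 6 and 8 against 105, 77 and 107 in DNMT TKO, and 4 and 3 against 73 and 79 in TET TKO. This copy was low in all shEmpty libraries and rose in each line, by 4.55 ± 0.33, 4.18 ± 0.31 and 4.81 ± 0.42. The effects in DNMT TKO and TET TKO differed from that in WT by -0.37 ± 0.52 and 0.26 ± 0.62 (SE), neither past the threshold.

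The integrant chr6:18792848-18796795, whose sequence overlaps an exon of Gm16854 on the other strand, rose by 1.26, 1.43 and 1.11 from CPM of 3.67 to 4.74 in WT, 0.711 to 0.964 in DNMT TKO and 2.89 and 3.23 in TET TKO. At chr8:109201562-109205009 no knockdown call was made, and the level was lower in both mutants than in WT, with log2 differences of -2.41 in DNMT TKO and -1.62 in TET TKO. A VL30 copy with a single LTR, chr13:62183440-62185753, rose strongly in TET TKO alone. Its CPM was 0.388 and 0.0751 in TET TKO shEmpty and 11.6 and 11.7 in TET TKO shKap1, and at most 0.799 in every WT and DNMT TKO library. The rise of 5.60 ± 0.38 in TET TKO exceeded that in WT by 5.47 ± 0.77 (adjusted p = 8.4e-08), a call lost without WT shEmpty replicate 3. A call in DNMT TKO (1.19) was made although its shEmpty and shKap1 libraries overlapped, and it was kept in only 5 of 14 alternatives.

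By name, VL30 integrants with RLTR6_Mm LTRs (63 tested) rose as a sum by 0.96 in WT, which is just under 2-fold, 1.99 in DNMT TKO and 1.29 in TET TKO. Those with RLTR6C_Mm LTRs (23 tested) rose by 2.46, 3.51 and 2.89, and their shEmpty levels of 1.72, 1.38 and 1.03 CPM did not pass a difference between lines. Those with RLTR1D LTRs (6 tested) rose by 1.75 in WT and 3.93 in DNMT TKO but not past the threshold in TET TKO (0.68, adjusted p = 0.059). Internal parts alone (19 tested) rose by 1.37, 1.95 and 2.24. The 14 VL30 integrants with a Pro site rose in 10 cases in WT, 13 in DNMT TKO and 5 in TET TKO, with medians of 3.47, 3.94 and 2.27. The 41 with a Gly site rose in 19, 29 and 12 cases with medians of 1.38, 2.09 and 1.63.

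Among MuLV integrants the most read was chr5:23206397-23215063, an intergenic copy of 8667 bases with LTRs of RLTR4_Mm at both ends, a Pro site, and overlap with KAP1 and H3K9me3 regions. Reads on it numbered 1100, 1353 and 1404 in WT shEmpty, 2417, 2431 and 2078 in WT shKap1, 2973 and 2938 in TET TKO shEmpty and 5562 and 4708 in TET TKO shKap1. In DNMT TKO they numbered 10, 0 and 3 without and 12, 15 and 3 with knockdown. The WT and TET TKO groups were apart from their knockdown groups, yet the rises of 1.11 ± 0.41 in WT (adjusted p = 0.12) and 1.21 ± 0.50 in TET TKO (0.17) did not pass in the joint fit. In WT the rise stayed uncalled in 11 of 14 alternatives. The fit of the contrast's own libraries and DESeq2 were among those that called it, with adjusted p from 3.9e-23 to 0.54 over all alternatives. In TET TKO the rise stayed uncalled in 9 of 12 alternatives. The same 2 fits were among those that called it, with adjusted p from 3.3e-46 to 0.68 over all alternatives. Without knockdown the log2 difference of DNMT TKO from WT was -8.16 (adjusted p = 7.3e-06), from 6.11 to 0.0240 CPM per kb.

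A second MuLV locus lay on chromosome 8 in an intron of Gm20388 on the other strand, where 3 adjacent integrants share 1 place and are not independent. On chr8:125952122-125954785, which overlaps H3K9me3, reads numbered 0, 0 and 0 in WT shEmpty and 229, 509 and 419 in WT shKap1, 0 and 0 and then 206 and 167 in TET TKO, and between 0 and 2 in all 6 DNMT TKO libraries. It was at least 471-fold higher on knockdown in WT and at least 166-fold in TET TKO, taking 3 reads over the group as the floor, and was not called in DNMT TKO (0.77, adjusted p = 0.72). Its neighbour chr8:125954852-125958431, with a Pro site and a KAP1 region, rose by 8.25 ± 0.33 in WT and 8.64 ± 0.47 in TET TKO and by 0.59 ± 0.86 without passing in DNMT TKO, where at most 3 reads were counted per library. In shEmpty cells it had 0, 1 and 3 reads in WT and 0 and 1 in TET TKO, so these approximated SEs are rough. The piece of MMERGLN next to it, chr8:125951682-125952135, was at least 132-fold higher in WT and at least 52.2-fold in TET TKO.

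Another complete MuLV copy, chr1:172871652-172880308 (Pro site, KAP1 and H3K9me3), was at 0.0555, 0.0356 and 0.106 CPM in WT shEmpty and at 4.72, 22.3 and 20.3 in WT shKap1, the first of which stood well below the other two. It rose by 7.77 ± 0.93 in WT (adjusted p = 1.3e-04), and the 0.417 and 0.770 CPM of TET TKO shKap1 did not pass (2.92, adjusted p = 0.29), but passed with the replicate number as a block (3.00, 3.1e-05). The copy chr4:145686198-145694956 (Gln site, exon of Gm17565 on the other strand) rose by 4.17 ± 0.32 in WT and 2.70 ± 0.39 in TET TKO, from shEmpty levels of 0.248 to 0.376 CPM. The DNMT TKO shEmpty libraries were at 0, 0 and 0.0385 CPM, which differed from WT by -3.95 on the log2 scale. An internal part, chr2:156644567-156647072, had no knockdown call and was higher in DNMT TKO than in WT by 1.13 ± 0.36 (adjusted p = 0.021). That call was kept in 7 of 14 alternatives, and was lost without WT shEmpty replicate 1 (0.734) and without DNMT TKO shEmpty replicate 2 or 3.

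The non-VL30, non-MuLV integrants gave the highest levels and the widest range of responses. The most read of all ERV1 integrants was chr8:124356745-124365164, a MMERGLN copy of 8420 bases with RLTR1B LTRs and a Gln site in an intron of Gm20388 on the same strand. It was at 459.5, 449 and 422 CPM in WT shEmpty and 459.9, 455 and 491 in WT shKap1, at 598 and 738 and then 729 and 702 in TET TKO, and at 4.11, 1.07 and 2.81 and then 4.51, 2.59 and 2.74 in DNMT TKO. Every DNMT TKO library lay below every other library, with a log2 difference of -7.40 ± 0.45 from WT (adjusted p = 6.9e-07), and no knockdown changed it past the threshold. The call against WT was kept in 13 of 14 alternatives and ended by limma-voom (adjusted p = 0.9998), whose weights at this copy ran from 12.1 to 2.01e+12. Limma-voom was likewise the 1 alternative that ended the calls given here for the copies chrX:160486274-160489801 (DNMT TKO against WT), chr15:39073392-39076940 (knockdown in WT), chr10:74177442-74180977 (DNMT TKO against WT), chr17:46487101-46494171 (knockdown in each line), chr9:57324909-57329146 (knockdown in TET TKO and its difference in DNMT TKO) and, of the MuLV copies, chr5:23206397-23215063 (DNMT TKO against WT). The level of the chromosome 8 copy in WT shEmpty, 52.7 CPM per kb, compares with 144 for an intergenic copy with LTRIS2 and RLTR1B-int, chrX:160486274-160489801. The chromosome X copy differed between DNMT TKO and WT by -6.35 (2.4e-05), from 419, 406 and 698 CPM to 10.1, 4.11 and 4.59.

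The copy chr15:39073392-39076940 (Rims2 intron on the other strand, KAP1 and H3K9me3) fell on knockdown in WT, from 178, 190.1 and 226 CPM to 68.5, 39.5 and 41.7, a log2 change of -1.99 ± 0.34 (adjusted p = 0.0019). It was low in DNMT TKO from the start (14.7, 7.53 and 14.5 CPM) and did not change past the threshold (0.41), a difference from the WT effect of 2.39 ± 0.48 (0.032). The call of that difference was lost in 9 of 12 fits that each left out 1 library, and was kept in 9 of 20 alternatives in all. A copy with the same parts (LTRIS2 and RLTR1B-int), chr10:74177442-74180977, differed the other way between lines. It stood at 1.94, 0.960 and 1.31 CPM in WT shEmpty and 166, 162 and 128 in DNMT TKO shEmpty, higher by 6.79 ± 0.80 (2.0e-04), and the 10.3 and 12.2 CPM of TET TKO, above every WT library, did not pass (0.055) but did in 4 of 13 alternatives, DESeq2 among them, with adjusted p from 6.6e-62 to 0.78. Of the most-read integrants, 2 lie in exons on the same strand, chr15:36701457-36701818 in Ywhaz and chr2:156652908-156660585 in Gm14230, where reads of the gene and of the integrant cannot be told apart. Neither was called in any comparison.

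Of the others that rose most, the copy chr17:46487101-46494171 (MMERGLN-int and RLTR1A2_MM, KAP1 and H3K9me3) was at 0.0354 to 0.0555 CPM in WT shEmpty, 0.0345 to 0.270 in DNMT TKO shEmpty and 0.0376 and 0.0705 in TET TKO shEmpty. On knockdown it reached 1.78, 4.07 and 2.24 CPM in WT, 6.62 and 6.52 in TET TKO, and 116, 67.3 and 61.7 in DNMT TKO. The log2 rises were 5.90 ± 0.37, 6.78 ± 0.40 and 9.34 ± 0.29, and the excess in DNMT TKO over WT of 3.44 ± 0.91 did not pass (adjusted p = 0.18). Each WT shEmpty library held 1 read on this copy, so the approximated SEs of the rises are rough. At chr3:142328482-142331320 (KAP1 region) DNMT TKO went from 0 reads in all 3 libraries to 5.67, 2.16 and 2.74 CPM, at least 85.7-fold, and WT and TET TKO rose by 5.24 ± 0.54 and 6.69 ± 0.53. A piece of MERV1_I-int, chr5:144196634-144197628, was at 0 reads in all shEmpty libraries of WT and TET TKO. It was at least 74.1-fold higher on knockdown in WT (2.10, 3.42 and 3.36 CPM) and at least 21.9-fold in TET TKO, with 1 read in all over the 6 DNMT TKO libraries.

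A smaller set fell on knockdown, and 4 of the 5 named by the size of the fall held RLTR1B or RLTR1B-int. The complete copy chr9:57324909-57329146 (Gln site, intergenic, no KAP1 or H3K9me3 region) was at 148, 84.0 and 88.7 CPM in WT shEmpty and 5.08, 1.73 and 2.67 in WT shKap1. It went from 31.8, 30.8 and 30.6 to 4.32, 5.97 and 4.41 in DNMT TKO and from 26.4 and 26.3 to 5.05 and 4.47 in TET TKO. The groups did not overlap, and the log2 falls were -5.09 ± 0.24, -2.66 ± 0.22 and -2.47 ± 0.27, smaller in both mutants than in WT (adjusted p = 5.7e-07 and 2.7e-06). The call of the difference in TET TKO was kept in 16 of 18 alternatives and lost by limma-voom and 1 other. On chromosome 1, chr1:92519582-92523073 and chr1:92524341-92525201 lie close together and fell together, the first by 5.21 ± 0.20 in WT, by 1.90 ± 0.17 in DNMT TKO and by 4.12 ± 0.22 in TET TKO. An LTR at chr11:20039155-20039665 fell by 4.12, 2.66 and 3.33 from CPM of at most 4.30. The RMER5 integrant chr9:111391715-111392231 lies in an exon of Dclk3 on the same strand, and it fell by 3.63 in WT and 4.52 in TET TKO while the gene itself changed by -4.01 and -4.69.

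**Figure D4:**
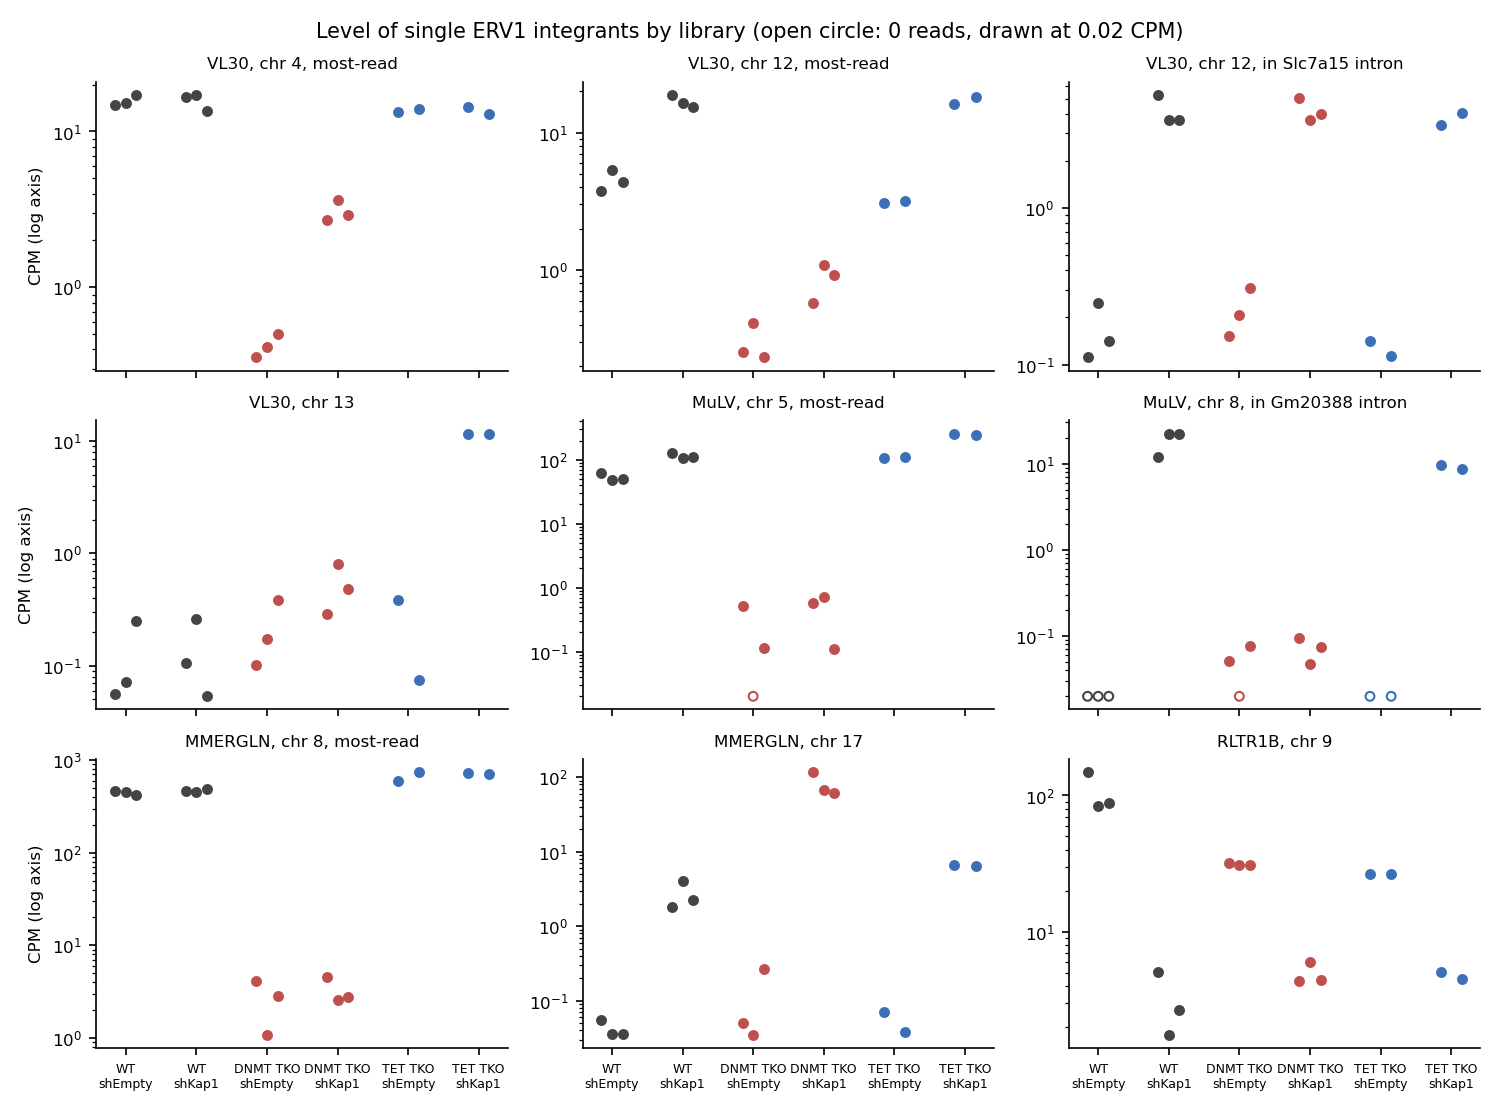
Level of 9 ERV1 integrants in each library (y axes, CPM on a log scale that differs between panels) by line and hairpin. Points are libraries, and open circles mark libraries with 0 reads, which a log axis cannot show at their value. The top row and the first panel of the second row are VL30, the next 2 are MuLV and the last row is other ERV1. The chromosome 4 VL30 copy was lowest in DNMT TKO shEmpty (0.355 to 0.501 CPM) and below WT and TET TKO in both DNMT TKO groups, the chromosome 12 copy in Slc7a15 rose in all lines, and the chromosome 9 RLTR1B copy fell in all lines.

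Comparing shEmpty cells between lines shows how ERV1 RNA differed without knockdown. Loss of the enzymes and other differences between the lines, copies missing from a genome included, cannot be told apart in it. In DNMT TKO 252 ERV1 integrants were higher (11.7%) and 168 lower (7.82%) than in WT, where 3.48% and 6.45% of all TEs were. Of VL30, 8 were higher and 21 lower (6.61% and 17.4%, or 5 and 13 integrants by DESeq2), and the sum differed from WT by -1.34 on the log2 scale (adjusted p = 1.4e-08), or by -0.90 without the most-read copy. MuLV had 2 higher and 4 lower, and its sum differed by -3.92 (2.2e-12), which turned to 0.38 without the chromosome 5 copy (0.48). The other integrants had 242 higher and 143 lower (12.1% and 7.13%). In TET TKO 109 ERV1 integrants were higher (5.08%) and 86 lower (4.01%), against 1.74% and 2.33% of all TEs. These counts were 60 to 98 and 38 to 82 when single libraries were left out, with the lowest without TET TKO shEmpty replicate 2, and 49 and 34 by DESeq2. Here 18 of the 86 were VL30 (14.9% of VL30) and 5 VL30 integrants were higher, whereas MuLV had 0 higher and 1 lower, with 4 at an unadjusted p below 0.05. On leaving out single libraries 8 to 16 VL30 integrants were lower, with the shift arising without either TET TKO shEmpty library, and 1 to 3 were higher, fewer in every such fit. The VL30 sum differed in TET TKO by -0.57 (0.0016) and the MuLV sum by 1.00 (3.0e-05, at 1.99-fold just under the threshold).

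Some integrants were read in 1 line and not in another. All libraries of a line had 0 reads on 64 of the 2147 integrants in WT, 68 in DNMT TKO and 91 in TET TKO, which has 4 libraries where the others have 6. These are 2.98, 3.17 and 4.24%, against 1.72, 2.18 and 1.76% of all TEs tested. The LTRs chr9:21164886-21165172 and chr16:70999129-70999613, both LTRIS_Mus, had reads only in DNMT TKO. They were there at 4.41 to 5.79 and 3.39 to 4.27 CPM with either hairpin, at least 124-fold and at least 91.1-fold above WT in shEmpty cells. The LTR chr5:110321297-110321868 (RLTR6B_Mm) was at 0 in WT shEmpty and at 0.690 to 1.07 CPM in DNMT TKO and 1.69 and 2.03 in TET TKO, at least 21.3-fold and at least 46.0-fold higher. The MER34 piece chrX:70403278-70403364 in an exon of Xlr5b was at least 23.3-fold and at least 35.2-fold higher, and the gene itself was higher by 5.16 and 5.71 on the log2 scale. In the opposite direction chr15:33153125-33153422 and chr12:68921549-68922194 had 0 reads in every TET TKO library and were at least 47.8-fold and at least 33.3-fold lower than in WT. Integrants that the genome of a line lacks and integrants that are silent there cannot be told apart from these counts.

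Whether the knockdown acted differently in a mutant was tested by the difference of the 2 changes. Against WT, the effect in DNMT TKO was higher for 38 ERV1 integrants and lower for 48 (1.77% and 2.24%), where 1.33% and 0.473% of all TEs were. For VL30 it was higher for 6 and lower for 2, for MuLV higher for 0 and lower for 2 (7 at an unadjusted p below 0.05), and for the others higher for 32 and lower for 44. On leaving out single libraries 1 to 2 VL30 integrants were lower there, and 0 to 1 MuLV integrants higher and 1 to 3 lower. In TET TKO it was higher for 33 and lower for 17 (1.54% and 0.792%), against 0.831% and 0.242% of all TEs, with 6 and 3 for VL30 and 1 and 0 for MuLV. By DESeq2 18 ERV1 integrants were higher in TET TKO. On leaving out single libraries the ERV1 counts in TET TKO ran from 16 to 35 and from 10 to 19. In the same fits the VL30 counts ran from 1 to 6 and from 1 to 3, and the MuLV call was lost in 7 of 10. The widest of these among integrants with at least 200 reads included chr4:146859640-146863163 (Gm16889 intron, KAP1 and H3K9me3), which had 0 reads in WT shEmpty and was at least 78.5-fold higher on knockdown there, and which rose by 2.28 ± 0.32 in DNMT TKO and 3.84 ± 0.50 in TET TKO. The LTR chr16:44339530-44339952 had 0 reads in DNMT TKO shEmpty and 0.445 to 0.768 CPM in shKap1, at least 15.1-fold, while the changes of 0.95 in WT and 0.79 in TET TKO did not pass. The short copy chr17:37328142-37329329 rose in TET TKO by 4.01 ± 0.34, from 0.740 and 0.563 CPM to 16.3 and 4.93, and changed by -0.77 without passing in WT. Its call in TET TKO was kept in 11 of 12 alternatives. The call of its difference from WT was kept in 17 of 18 and ended by limma-voom. The piece chr9:4260141-4260219 had 0 reads in WT shEmpty and was at least 39.9-fold higher on knockdown there, and it rose by 6.21 in DNMT TKO and 3.36 in TET TKO.

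What the rising integrants shared was then described by features that the read filter did not use. The integrants themselves had passed that filter, and a copy silent in all shEmpty libraries passed only through its knockdown reads. The counts and medians of rises below are therefore not free of the filter. Of the 112 ERV1 integrants with a Pro site 67 rose in WT, 53 in DNMT TKO and 65 in TET TKO, with median log2 changes of 4.03, 3.58 and 4.12. Of the 141 with a Gly site 61, 57 and 39 rose (medians 1.77, 1.90 and 2.12), and of the 154 with a Gln site 58, 38 and 55 (1.12, 0.75 and 1.24). The 1739 without a match rose in 391, 370 and 368 cases, with medians of 0.65, 0.60 and 0.49. Between shEmpty cells of DNMT TKO and WT the order was another. Gln-site integrants were higher in DNMT TKO in 48 cases and lower in 13, Gly-site integrants in 18 and 18, and Pro-site integrants in 1 and 4. The Pro-site integrants were long, with a median of 7812 bases, against 7539 for the Gln-site, 4730 for the Gly-site and 502 for the integrants without a match. Primer site and length were not separated by a test.

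**Figure D5:**
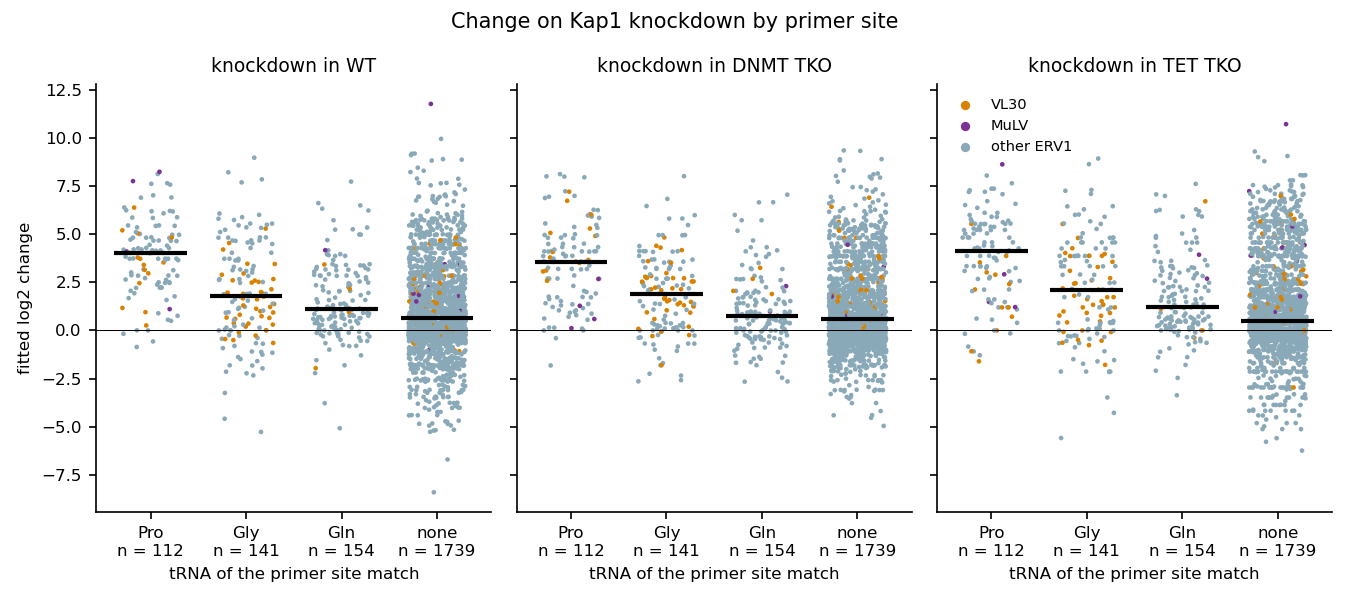
Fitted log2 change on Kap1 knockdown (y axis) of ERV1 integrants by the tRNA of their primer site match (x axis) in WT, DNMT TKO and TET TKO. Each point is an integrant, coloured by group, and thick lines are medians. The Pro median was 4.03, 3.58 and 4.12, above those of Gly, Gln and integrants with no match in each line.

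Structure and chromatin were read in the same way and with the same limit. The 326 integrants with an internal part between LTRs rose in 164 cases in WT, 115 in DNMT TKO and 141 in TET TKO (medians 2.84, 1.84 and 2.69), and the 1155 LTRs without an internal part in 195, 174 and 173 (0.36, 0.29 and 0.33). The 666 with an internal part that was not between LTRs lay between, with 218, 230 and 213 rising. KAP1 regions overlapped 37.2% of VL30, 42.9% of MuLV and 24.2% of other integrants, against 8.15% of all TEs tested, where 1 shared base was enough. With an overlap of at least 25% of the integrant the KAP1 shares were 3.31, 9.52 and 11.9%, against 3.44% of all TEs. H3K9me3 overlapped 13.2%, 57.1% and 28.5%, against 7.73%, and with the wider overlap 4.96, 33.3 and 24.9%, against 5.64%, so that VL30 then lay below all TEs. A share of the integrant asks for more covered bases on a long integrant, and 1 shared base is easier to meet there. Length was not allowed for in these shares. Of the 403 ERV1 integrants with both a KAP1 and an H3K9me3 region, 213 rose in WT, 149 in DNMT TKO and 161 in TET TKO (medians 2.87, 2.05 and 2.65). Of the 1411 with neither, 249, 251 and 259 rose (0.40, 0.44 and 0.38). VL30 without a KAP1 region rose in 40 of 76 cases in DNMT TKO, and with a KAP1 region in 32 of 45. The KAP1 and H3K9me3 regions were a single set used for all lines, so binding in the TKO lines themselves was not measured here. H3K4me3 peaks found in both replicates overlapped 3.31% of VL30, 4.76% of MuLV and 8.28% of the others, and H3K27me3 2.48%, 0% and 1.80%, against 7.20% and 0.874% of all TEs.

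ERV1 integrants lay mostly outside genes. Of the 2147, 1483 were intergenic (69.1%, against 35.9% of all TEs tested), 515 in introns (24.0%, against 54.4%), 130 overlapped an exon on the same strand (6.05%) and 19 an exon on the other strand. The share that rose in WT was 31.0% of the intergenic, 16.1% of the intronic, 20.0% of the same-strand exonic and 47.4% (9 of 19) of the other-strand exonic integrants. CpG sites, where DNA methylation is placed, numbered a median of 3.65 per 100 bases in MuLV integrants that passed the read filter, 1.52 in VL30 and 1.48 in the others. In copies with no reads they numbered 0.403, 0.880 and 0.600, and those copies were also shorter.

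5-hydroxymethylcytosine (5hmC), the product of TET enzymes, was measured in WT cells by immunoprecipitation and sequencing (hMeDIP), with 1 usable replicate and so no test. Its change on knockdown, as 5hmC over input, was taken over the KAP1 regions on an integrant. Over 534 ERV1 integrants with enough input the median log2 change was 0.52, and 123 (23.0%) rose by at least 2-fold. Over all TEs with a KAP1 region it was 0.83 (39.1% of 10032), and over the KAP1 regions themselves 0.64 (33.6% of 25992). VL30 stood at 0.50 (44 integrants), MuLV at 1.06 (9) and the others at 0.52 (481). The values depend on the scaling, since with scaling to H3K4me3 regions the medians of VL30 and of the others were 0.11 and 0.13. Of the others with a value, the 224 that rose in WT RNA had a median of 0.63, the 247 that were not called 0.33 and the 10 that fell 0.49. For VL30 the medians were 0.53 for the 19 that rose and 0.46 for the 25 not called. For MuLV the 8 that rose had a median of 0.95, below the 1.34 of the 1 not called. At the KAP1 region on chr12:24765983-24769896, the VL30 copy in 9030624G23Rik, 5hmC reads went from 19 to 56 with inputs of 16 and 9, a log2 change of 2.61. Without the inputs the change was 1.39 (counting interval 0.61 to 2.22). Reads were counted over the whole region, and most of this region lies outside the copy. At the chromosome 5 MuLV copy the 3 regions gave 2.09, 1.33 and 0.59. At the region on the falling copy chr1:92519582-92523073, most of which also lies outside the copy, 5hmC reads went from 20 to 5 (-1.09).

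By name, 73 ERV1 families were tested as sums over their copies: the 10 of VL30 and MuLV, and 63 others with at least 20 integrants tested or 1000 reads. On knockdown 25 of the 73 rose and 3 fell in WT, 26 rose in DNMT TKO and 28 in TET TKO with none lower, where 26.7, 31.1 and 35.1% of all 1198 families tested were higher. The 1198 take in every name with at least 16 reads, a lower bar than that of the 63 others, so the 2 sets differ in depth. The share of all families that fell is not given here, so the 3 falls have no such value beside them. RLTR6-int with RLTR6B_Mm LTRs (117 integrants tested) went from 4.13 to 122 CPM in WT, 8.08 to 64.8 in DNMT TKO and 3.31 to 212 in TET TKO as group means. It rose by 4.86 ± 0.33 in WT and 2.99 ± 0.30 in DNMT TKO, less in DNMT TKO than in WT (difference -1.87 ± 0.41, adjusted p = 0.011), and 83, 41 and 69 of its copies rose. RLTR4_MM-int with RLTR4_Mm LTRs, which share their LTR name with most MuLV copies, rose by 2.40 in WT and in TET TKO and by 0.64 in DNMT TKO, less than 2-fold. It was higher in DNMT TKO shEmpty cells by 1.19.

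Other families that rose in all 3 lines included LTRIS4B with MURVY-int (7.24, 8.24 and 6.62 in WT, DNMT TKO and TET TKO), MMERGLN-int with RLTR1D2_MM (4.76, 5.31 and 3.67), MURVY-int (3.92, 5.43 and 2.94) and LTRIS_Mm with MuRRS-int (3.32, 3.15 and 2.88). Summed with another LTR, the same internal part changed little on knockdown. MMERGLN-int with RLTR1B, which holds the chromosome 8 copy, changed by 0.14, 0.23 and 0.17 and differed between DNMT TKO and WT shEmpty cells by -1.56. The chromosome 8 copy alone stood at a mean of 444 CPM in WT shEmpty and 2.67 in DNMT TKO shEmpty. The 3 families that fell in WT all held RLTR1B parts. RLTR1B with RLTR1B-int fell by 1.41 in WT but rose by 1.44 in TET TKO, a difference of 2.85 ± 0.24 (adjusted p = 1.1e-05). LTRIS2 with RLTR1B-int fell by 1.09 and RLTR1B-int by 1.07, and neither was called in the mutants. RLTR1B with RLTR1B-int holds the copy chr9:57324909-57329146, which fell in WT. LTRIS2 with RLTR1B-int holds chr15:39073392-39076940 and chr1:92519582-92523073, which also fell there. Values of these families without their most-read copies are not given here, so LTR type and single copies cannot be told apart. RMER5 (140 integrants tested, -0.06, 0.03 and 0.24) and RLTR14 (0.08, 0.10 and 0.33) were not called.

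Of 37 genes known to act on gammaretroviruses or on KAP1-type silencing 36 were tested, and 17.4% of 20321 genes were called in WT, 12.5% in DNMT TKO and 12.5% in TET TKO in either direction. Trim28 was the only one lower in each line. In WT 5 rose: Zfp809, which reads the Pro site (1.53), the methyltransferase gene Dnmt3a (1.15), the 5hmC-forming Tet3 (1.80), the retrovirus restriction gene Fv1 (1.57) and the retrovirus receptor gene Slc20a2 (1.11). Only Fv1 rose in DNMT TKO (2.66) and only Dnmt3a in TET TKO (1.26). Zfp809 was at 20.5 ± 1.55 CPM in WT shEmpty (SD, n = 3) and 59.0 ± 3.92 in WT shKap1. In DNMT TKO it was at 57.2 ± 5.29 and 93.1 ± 18.2, already higher than WT without knockdown by 1.48. In TET TKO it was at 31.7 and 43.9 (n = 2), and neither mutant rose by 2-fold on knockdown.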

How the data were processed

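RNA-seq reads of 16 libraries had been aligned and counted by the authors, with HISAT2 2.0.1, featureCounts 1.5.1 for genes, bedtools 2.25 for repeats and HTSeq 0.6, Bowtie2 2.2.1, MACS 1.4, SICER 1.1 and CASAVA 1.82 also named in the submitters' processing notes. The deposited values are raw counts of reads per gene and of uniquely placed, strand-matched reads per merged repeat (mm9, RepeatMasker). The KAP1 and H3K9me3 regions and the H3K4me3 peaks, the latter with a score per peak, were also called by the authors, the H3K4me3 and H3K27me3 sets per replicate. H3K4me3 and H3K27me3 were counted as overlapping where both of 2 replicates had a peak, at 1 bp or more.

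Here edgeR 4.0.16 (R 4.3.3) fitted its quasi-likelihood model once over the 6 groups, with library sizes and TMM factors from the genes and no replicate term, and p-values were adjusted by Benjamini-Hochberg over all TEs, genes or families. The 7 contrasts were the knockdown in each line, each mutant against WT in shEmpty cells, and the difference of the knockdown effects. Calls were made at an adjusted p under 0.05 with at least a 2-fold change, and group sums were tested among the family sums. SEs of log2 changes were approximated as the size of the change over the root of its F statistic. They can be too small where a group has few reads. The SEs of 2 changes need not combine to that of their difference. A group at 0 reads was given a floor of 3 reads over the group, so a change against it is a lower bound. On simulated data the fit recovered 77, 79 and 64 of 100 TEs changed by 2 on the log2 scale in WT, DNMT TKO and TET TKO, and 97, 97 and 78 of 100 changed by 3. The changed TEs were drawn from the 18643 with the most reads, and all TEs were simulated with a shared spread. Recovery at integrants with fewer reads was not tested. Counts are not molecules, so the floors cover counting error only.

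ERV1 integrants were those of the class in the repeat track, divided by name. The integrants and gene lists were chosen with earlier results of these data known. Named integrants were the 6 VL30 and 6 MuLV with the most reads, the 6 others with the most reads, and for each contrast the 2 with the widest rise and the 2 with the widest fall of those called on 200 reads or more. Primer sites, CpG content and overlaps were read from the mm9 sequence and annotation with Python 3.11.15 and bedtools 2.31.1. For 5hmC, replicate 1 was used, with at least 10 input reads and a pseudocount of 1, scaled to all regions. Replicate 2 was not used here because its labels and names disagree on the hairpin. Replicates are described as independent experiments. Whether the replicate numbers pair libraries was checked. Over 15676 genes the deviations of same-numbered shEmpty and shKap1 libraries correlated at 0.156 to 0.338 in WT and 0.146 to 0.466 in DNMT TKO, whereas in TET TKO they did not (-0.0408). Over 18643 TEs they correlated at 0.0287 to 0.149 in WT and 0.0136 to 0.254 in DNMT TKO, so not every pair was above 0.1 there. Any pairing thus rests on the gene values and not on a label. Alternatives were DESeq2 1.42.0, limma 3.58.1 (voom), TE-based scaling, other read filters, a replicate term, fits of single contrasts, leaving out each library, sums without the leading copies, other overlap and peak rules and exact primer matches.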

Additional observations from a re-analysis of the deposited data

Results flagged for a closer look

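The effect of Kap1 knockdown differed between lines for 3 sums and 16 named integrants, each tested by the interaction term of the edgeR fit, as a log2 difference from the effect in WT. For the sums it was 1.11 for VL30 in DNMT TKO, -0.66 for MuLV in DNMT TKO and 0.44 for the other ERV1 in TET TKO, the last 2 under 2-fold. Without the most-read copy the MuLV value was -3.60. Trim28 was reduced less in DNMT TKO than in WT, and its part in the DNMT TKO values was not tested.

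In DNMT TKO the VL30 copies chr4:146310938-146315667 and chr11:86625244-86629897 differed by 2.83 and 1.85. The MuLV copies chr8:125952122-125954785 and chr8:125954852-125958431, neighbours at 1 locus, differed by -11.02 and -7.66. Copies that fell in WT fell less or did not change past the threshold in DNMT TKO, with 2.39 for chr15:39073392-39076940, 3.03 for chr1:92524341-92525201, 3.31 for chr1:92519582-92523073, 2.42 for chr9:57324909-57329146 and 2.72 for chr9:111391715-111392231. The LTRs chr12:68921549-68922194 and chr16:44339530-44339952 differed by 4.85 and 5.91, the MERV1 piece chr5:144196634-144197628 by -10.93 and the intronic copy chr4:146859640-146863163 by -6.92.

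In TET TKO the differences were 1.09 for chr1:92519582-92523073, 2.62 for chr9:57324909-57329146, 5.47 for the VL30 copy chr13:62183440-62185753 and 4.79 for chr17:37328142-37329329. They were -5.37 for chr4:146859640-146863163 and -4.88 for chr9:4260141-4260219. For chr8:125952122-125954785, chr16:44339530-44339952, chr5:144196634-144197628, chr4:146859640-146863163 and chr9:4260141-4260219 a group had 0 reads in every library, so these values depend on the prior count of the fit and are not bounds. The calls of chr15:39073392-39076940 and chr1:92524341-92525201 in DNMT TKO were kept in 9 and 10 of 20 alternatives and that of chr9:111391715-111392231 in 12 of 20. The calls of chr1:92519582-92523073 and chr9:4260141-4260219 in TET TKO were kept in 6 and 8 of 18 and that of chr4:146859640-146863163 in 12 of 18. On leaving out single libraries chr8:125954852-125958431 in DNMT TKO ran from -10.83 to -5.08 and chr5:144196634-144197628 from -11.38 to -9.10, with the calls lost without DNMT TKO shEmpty replicate 3 and 2. In TET TKO chr13:62183440-62185753 ran from 4.49 to 7.05, lost without WT shEmpty replicate 3, and chr17:37328142-37329329 from 3.68 to 5.40. The cause of these differences was not tested.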

How the results depend on the processing

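Of 382 comparisons of the main results with an alternative, leaving-out of libraries apart, 329 kept their direction and side of the threshold or stayed within 1.5-fold. With DESeq2, ERV1 integrants called higher on knockdown numbered 374, 318 and 314 in WT, DNMT TKO and TET TKO, 49 in TET TKO at baseline, and 21 and 18 for the difference of effects in DNMT TKO and TET TKO. Those called lower numbered 25 and 16 on knockdown in DNMT TKO and TET TKO and 105 and 34 at baseline. With a filter of 50 reads the higher counts were 382, 336 and 336, and 17 for the difference in TET TKO. With no filter that count was 21, and 19 fell on knockdown in TET TKO. With scaling to TE reads 50 fell there, and the log2 values were 0.99 for VL30 in WT, 0.99 for the difference of VL30 effects in DNMT TKO, 0.84 for MuLV in DNMT TKO and 1.13 for MuLV in TET TKO at baseline. The last was 1.01 by limma-voom and 1.01 outside exons.

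Without the most-read copy the VL30 baseline difference in DNMT TKO was -0.90, the difference of its effects 0.82, the MuLV baseline difference 0.38 (reversed) and the difference of MuLV effects -3.60. Without the top 3, an alternative chosen after seeing the data, they were -0.63, 0.95, 0.38 (reversed) and -2.43. With an overlap of at least 25% KAP1 covered 3.31, 9.52 and 11.9% of VL30, MuLV and others, H3K9me3 4.96, 33.3 and 24.9% (5.64% of all TEs) and H3K4me3 0.826, 0 and 5.54%. With peaks of either replicate H3K4me3 covered 13.2% of both VL30 and others, and H3K27me3 10.7 and 5.54%. With H3K4me3 peaks above the median score these were 0.826 and 4.44%. Without mismatches Gln sites numbered 0, 1 and 65, and in the others Gly sites 58 and Pro sites 54. With 5hmC scaled to H3K4me3 regions the medians were 0.11 for VL30 and 0.13 for the others.

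Leaving out single libraries moved the counts for TET TKO most. The range was 60 to 98 higher and 38 to 82 lower at baseline, 19 to 26 lower on knockdown, and 16 to 35 higher and 10 to 19 lower for the difference of effects, with the shifts arising without either TET TKO shEmpty library, TET TKO shKap1 replicate 1 or 2, or WT shEmpty replicate 3. The difference of VL30 effects in DNMT TKO ran from 0.956 to 1.20, under 2-fold without DNMT TKO shKap1 replicate 2. MuLV in TET TKO at baseline ran from 0.937 to 1.10, past 2-fold without TET TKO shEmpty replicate 1 or WT shEmpty replicate 1, and MuLV on knockdown in DNMT TKO from 0.850 to 1.16, under 2-fold without replicate 1 of either hairpin. With a replicate block 551, 512 and 522 integrants rose on knockdown and VL30 rose by 1.07 in WT. Among named integrants the block added calls for chr1:172871652-172880308 (in TET TKO and in both differences of effects) and ended that of chr4:146859640-146863163 at baseline in TET TKO, and it changed no other call.

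Of 108 calls for 36 named integrants 73 were kept in every alternative and 23 were lost in an alternative other than limma-voom. Limma-voom alone ended 12, 11 of them on integrants where its residual SD was above 10, against a median of 1.03 over all TEs. The highest weights of these integrants were 4100 to 2.01e+12, against a median weight of 1.52, with a fitted trend of spread that ran down to -0.000840 at the highest levels, so little can be read from its p-values there. The cause of the other shifts was not tested.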
